A study of Mus musculus with 9 samples.

Results

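The enzymes of DNA methylation were followed here through the RNA of 8 genes: the methyltransferases Dnmt1, Dnmt3a, Dnmt3b and Dnmt3l, the cofactor Uhrf1, and the dioxygenases Tet1, Tet2 and Tet3. They were chosen by name, and each was found once among the 46078 gene identifiers counted. All 8 passed the filter on low counts in each comparison. DNA methylation itself was not measured, so the values describe transcripts only.

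Methylation of cytosine in CpG dinucleotides is copied after DNA replication by Dnmt1, which Uhrf1 brings to the hemimethylated DNA behind the fork. New methylation is set by Dnmt3a and Dnmt3b, with Dnmt3l as a partner that has no catalytic activity of its own, and it is taken down either by replication without copying or by the Tet enzymes, which oxidise 5-methylcytosine for later removal by base excision repair. In the male germ line, methylation is laid down before birth in prospermatogonia, and spermatogonia then pass it on while they divide and begin to differentiate.

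The samples were 9 RNA-seq libraries of EGFP-SSCs, a single line of wild-type (WT) mouse spermatogonial stem cells (SSCs) that carries a green fluorescent reporter. The 0 h group of 3 libraries was in normal culture, on mouse embryonic fibroblasts treated with mitomycin C and in medium with glial cell line-derived neurotrophic factor. The 24 h and 48 h groups, 3 libraries each, had been mixed in equal numbers with somatic cells from the testes of busulfan-exposed mice (3 to 7 days postpartum) and kept with BMP-4/7, retinoic acid, activin A, testosterone, FSH and BPE, and the EGFP-positive cells were then sorted. A change of culture thus accompanies each step from 0 h, and time, medium and the somatic partners cannot be told apart. The study describes flow sorting of SSCs from different culture stages for RNA-seq, and does not say separately whether the 0 h cells were sorted. The 3 libraries of a group are named as biological replicates of the one line, so the spread between them is that between cultures or preparations of that line and not between animals.

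Library totals ran from 16825251 to 22201892 counts, and levels are given in CPM, which are counts scaled to library size. General germ cell markers such as Ddx4 and Dazl were present throughout, with a summed level over 7 genes of 1493 to 2517 CPM at 0 h, 1875 to 2067 after 24 h and 1889 to 2067 after 48 h. Of the 7, 1 passed the test as higher and 1 as lower at 24 h against 0 h. At 48 h, 2 were lower against 0 h and 2 against 24 h. Nanos3 had mean levels of 15.2, 8.75 and 7.07 CPM at the 3 times. The summed level of 7 markers of undifferentiated spermatogonia went from between 1744 and 2046 CPM at 0 h to between 262 and 301 at 48 h, while that of 5 markers of differentiating spermatogonia, Kit and Stra8 among them, was 387 to 452 CPM at 0 h, 2020 to 2113 after 24 h and 1268 to 1374 after 48 h. The lists of somatic cell markers moved in both directions. The 7 stromal and fibroblast markers summed to 260 to 352 CPM at 0 h. After 24 h they summed to 2147 to 2420 CPM, and after 48 h to 2778 to 3039. Of these 7, 5 passed the test as higher in each of the 3 comparisons, and 1 was lower at 48 h against 24 h. The 6 peritubular myoid markers summed to 13.7 to 15.8, 149 to 207 and 267 to 318 CPM, with 5 of 6 higher in each comparison. Those of Sertoli cells summed to 14.3 to 18.1 CPM at 0 h and 35.9 to 49.3 in the co-culture groups. Of 6 tested, 5 were higher at both times against 0 h, and 1 was lower at 24 h against 0 h. Those of Leydig cells summed to 4.53 to 6.77 and 25.2 to 38.5 CPM, with 2 and then 3 of 3 tested higher. The defining receptors Fshr and Lhcgr were at or below 3 counts in every library. The 5 endothelial markers summed to 69.9 to 77.1 CPM at 0 h and 20.4 to 36.0 in the co-culture groups. Of these 5, 3 were lower in each comparison, and 1 was higher at both times against 0 h. The 5 macrophage markers summed to 16.4 to 17.7 and 6.72 to 11.8 CPM. Of 3 tested, 2 were higher and 1 lower at 24 h, and 1 of each at 48 h against 0 h. In sorted bulk samples, fewer cells of a type and less RNA per cell cannot be told apart.

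The promoters of the members that moved, and that of Dnmt1, are shown first. Uhrf1, which fell, and Dnmt1, which did not pass the test, carry the same letters of an E2F site. That site is the element through which genes of DNA replication are switched on in S phase. Windows of 300 bases, from 250 bases before to 50 bases after each start site, were taken from RefSeq (GRCm38.p6), where all 8 genes matched with 15 windows in all. The Uhrf1 stretch precedes the second of its starts and lies within an intron of the longer transcripts, and the Dnmt1 match precedes 1 of 3 starts. The Tet3 stretch precedes the only Tet3 start in this set, which lies inside the annotated gene and not at its 5′ end. For each stretch the 250 bases before the start are given 5′ to 3′ on the strand of the gene, except for Dnmt1, where 30 bases around the match are given. Capitals mark TTTCGCGC or its reverse complement and CCAAT in Uhrf1, TTTCGCGC in its reverse complement in Dnmt1, and CCAAT or GGGCGG on either strand in Tet3 and Dnmt3b.
Uhrf1, chr17:56304063-56304312, plus strand: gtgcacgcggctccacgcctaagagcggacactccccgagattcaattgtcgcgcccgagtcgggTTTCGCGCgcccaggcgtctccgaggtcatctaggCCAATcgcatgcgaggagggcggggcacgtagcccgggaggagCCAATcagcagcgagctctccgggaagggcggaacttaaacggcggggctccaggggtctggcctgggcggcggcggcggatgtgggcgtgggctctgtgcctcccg
Dnmt1, chr9:20952824-20952853, minus strand: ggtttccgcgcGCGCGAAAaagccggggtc
Tet3, chr6:83441679-83441928, minus strand: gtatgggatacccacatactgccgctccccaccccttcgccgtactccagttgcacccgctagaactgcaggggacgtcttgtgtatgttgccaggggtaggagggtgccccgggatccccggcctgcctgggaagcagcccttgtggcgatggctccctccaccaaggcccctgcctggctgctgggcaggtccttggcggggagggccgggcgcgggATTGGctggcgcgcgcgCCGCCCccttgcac
Dnmt3b, chr2:153649199-153649448, plus strand: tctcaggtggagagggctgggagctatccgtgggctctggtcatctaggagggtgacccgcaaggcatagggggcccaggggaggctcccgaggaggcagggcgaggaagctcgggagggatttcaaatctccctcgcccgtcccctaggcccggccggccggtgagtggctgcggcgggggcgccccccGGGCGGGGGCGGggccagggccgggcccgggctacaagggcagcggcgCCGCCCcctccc

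The letters TTTCGCGC, on either strand, were in 0.323% of the 32851 windows. Of the 8 genes, Uhrf1 held them once, beginning at position -185 from its start, and Dnmt1 once, beginning at position -219 and on the opposite strand. Dnmt1 also held TTTGGCGC within the first 50 bases after its start, letters found in 0.514% of windows. These Uhrf1 and Dnmt1 windows held 33 CpG each, where the median of all windows was 7, and the shares over all windows are not matched for CpG content. For each gene shown, the window with the highest ratio of observed to expected CpG was taken, so a high CpG count partly follows from that choice. The other Uhrf1 window held 12 CpG, and the other Dnmt1 windows held 12 and 2. TTTCGCGC, TTTGGCGC or TTTCCCGC was in a window of 2.12% of the 27025 genes with a window, in 2 of the 8 members (25.0%), in 8 of the 21 genes of an S phase list that have one (38.1%: Mcm3, Mcm5, Mcm6, Mcm7, Cdc6, Cdt1, Pola1 and Pold1) and in 4 of 9 genes of a list of maintenance partners (44.4%: Hells, Cdca7, Lig1 and Pclaf). The Tet3 and Dnmt3b windows held none of the 3, and neither did those of Dnmt3a, Dnmt3l, Tet1 and Tet2. Of 12 G2/M genes with a window, 1 held any of them (8.33%: Cdk1). E2f1, Ccne1, Rrm2 and Prim1, which are set beside Uhrf1 below, were not among the 8 S phase genes with these letters. Of the 25 genes in that list, 21 had a window. For Tet3 and Tet1 the only windows (chr6:83441629-83441928 and chr10:62887275-62887574) lie inside the genes. No window covered their 5′ ends at 83459084 and 62908996, so letters there were not searched. Retinoic acid was in the differentiation medium, and its receptors bind direct repeats of a hexamer. Such repeats, named DR5 and DR2, were in none of the 15 windows, against 0.0974% and 0.268% of all windows. Repeats this rare would be missing from most sets of 15 windows, so their absence here says nothing about retinoic acid. The ratio of observed to expected CpG was 1.17 for Tet2, 1.06, 0.964 and 0.468 for the 3 windows of Dnmt3a, and 0.694 for Dnmt3b. It was 0.959 for this Uhrf1 window and 0.472 for the other, and 0.91 for this Dnmt1 window and 0.5 and 0.101 for the others. Tet1 had 0.607, Tet3 had 0.576 and the 3 windows of Dnmt3l had at most 0.272, where the median of all windows was 0.384. No match of the E2F letters overlapped one of CCAAT or GGGCGG. A match of letters is a description of the window and says nothing about binding.

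Of the 8 genes, 3 passed the test in every comparison, namely Uhrf1, Dnmt3b and Tet3, and the other 5 in none. Uhrf1 was lower at each later time, Tet3 was higher at each later time, and Dnmt3b was highest at 24 h. In the test of 24 h against 0 h, 2 of the 8 were higher and 1 was lower, and the same counts held for 48 h against 0 h. Between 24 h and 48 h, 1 was higher and 2 were lower. The test was the quasi-likelihood test of edgeR with Benjamini-Hochberg adjustment over all genes and a threshold of 0.05, and among all genes it called 25.5% at 24 h against 0 h (11.4% higher and 14.2% lower), 31.6% at 48 h against 0 h (13% higher and 18.5% lower) and 21.3% at 48 h against 24 h (8.61% higher and 12.7% lower). With library size alone in place of TMM, 57.1% and 52.8% of the genes called against 0 h were higher, in place of 44.5% and 41.2%, and all genes moved by a median of 0.113 and 0.11 on the log2 scale. The same 3 genes were those whose libraries did not overlap between the groups, which was so for 43.1%, 47.7% and 38.5% of all genes in these comparisons. A share of 3 in 8 is thus not far from the background. The median log2 fold change of the 8 genes was -0.07 at 24 h and -0.10 at 48 h against 0 h, beside 0.01 and 0.02 for all genes tested.

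**Figure D1:**
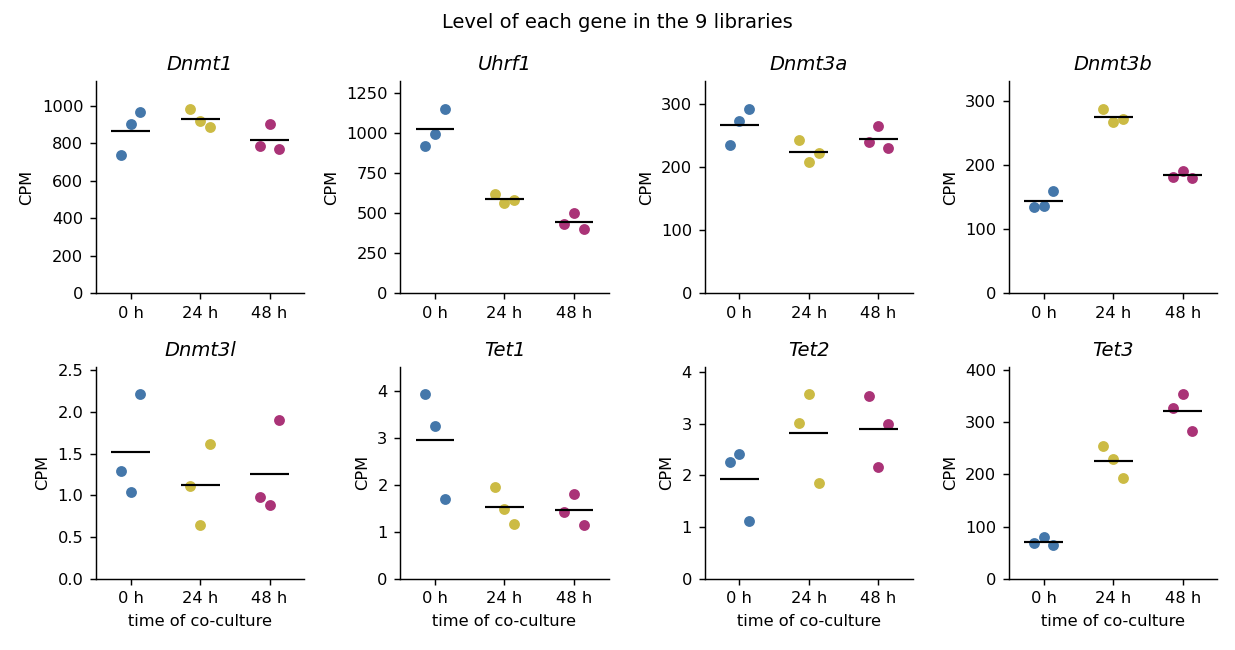
Level of each of the 8 genes in CPM (vertical axis, from 0, with its own scale for each gene) at 0 h, 24 h and 48 h. Points are libraries, 3 in each group in the order of their numbers, and lines are group means. The 3 groups stand apart for Uhrf1, Dnmt3b and Tet3, and overlap for the rest, with Dnmt3l, Tet1 and Tet2 at 3.93 CPM or less in every library.

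Per length of gene, the maintenance genes were the most abundant. In FPKM (reads per kilobase of exon, scaled to library size as CPM are and computed here with the union of exons as length), the order of means at 0 h was Uhrf1 with 240, Dnmt1 with 118, Dnmt3b with 28.1, Dnmt3a with 16.0, Tet3 with 4.25, Dnmt3l with 0.507, Tet1 with 0.192 and Tet2 with 0.115, and of these neighbours only Tet1 and Tet2 overlapped. At 24 h Uhrf1 (138 ± 6.54 FPKM, SD, n = 3) overlapped with Dnmt1 (126 ± 6.77), and Tet3 (13.5 ± 1.91) with Dnmt3a (13.5 ± 1.04). At 48 h Dnmt1 (111 ± 9.92 FPKM) and Uhrf1 (105 ± 11.8) overlapped again, and Tet3 (19.2 ± 2.14) stood above Dnmt3a (14.7 ± 1.09) with no overlap. Tet3 had been below Dnmt3a in all 3 libraries at 0 h, so the order of this pair was turned.

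Dnmt1, the maintenance methyltransferase (ENSMUSG00000004099, chr9:20907209-20959888, minus strand), had 736, 905 and 967 CPM in the 0 h libraries, 986, 922 and 888 after 24 h, and 784, 902 and 768 after 48 h. The 3 groups overlapped. Its log2 fold change was 0.10 at 24 h (unadjusted 95% interval -0.19 to 0.39) and -0.08 at 48 h (-0.38 to 0.22) against 0 h, with adjusted p = 0.612 and 0.677 in edgeR after Benjamini-Hochberg, and the value at 48 h turned to 0.029 with library size alone and to 0.066 with GC and length offsets. These intervals leave room for a change of up to about 0.39 on the log2 scale. From 24 h to 48 h the log2 fold change was -0.18 with adjusted p = 0.1 (edgeR, Benjamini-Hochberg), and it was called lower without 48 h replicate 2 (-0.24, adjusted p = 0.0449).

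Uhrf1 reads hemimethylated CpG with its SRA domain and marks histone H3 as a ubiquitin ligase, and without it Dnmt1 does not maintain methylation. The gene (ENSMUSG00000001228) lies at chr17:56303321-56323486 on the plus strand. Its libraries had 922, 994 and 1152 CPM at 0 h, 619, 565 and 582 after 24 h, and 434, 501 and 402 after 48 h. Every library was below every library of the time before it. Uhrf1 fell by 0.79 on the log2 scale at 24 h (SE 0.114, adjusted p = 0.00232 in edgeR with Benjamini-Hochberg), that is 1.73-fold, and at 48 h it was 2.28-fold lower than at 0 h (SE 0.127 on the log2 scale, adjusted p = 0.000502, same test). The step from 24 h to 48 h was a fall of 1.31-fold (adjusted p = 0.00741, edgeR with Benjamini-Hochberg), a call that was lost without the first 48 h library (adjusted p = 0.0525) and with all 9 libraries in 1 fit (adjusted p = 0.0657).

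With Uhrf1 lower and Dnmt1 not past the test, the ratio of the pair moved. Per kilobase of exon, Uhrf1 had 2.17, 1.9 and 2.06 times the counts of Dnmt1 in the 0 h libraries, 1.09, 1.06 and 1.13 after 24 h, and 0.959, 0.962 and 0.907 after 48 h. The groups did not overlap, and the mean ratio went from 2.04 ± 0.133 to 1.09 ± 0.037 and then 0.943 ± 0.0309 (SD, n = 3). The two-sided exact permutation test gave p = 0.1 for each pair of times, the smallest that 3 against 3 can give, and 0.124 after Benjamini-Hochberg adjustment over 21 such tests.

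Sequence shared with pseudogenes touches the Uhrf1 count. Over windows of 75 bases at 97% identity, 52.7% of the longest Uhrf1 transcript matched another gene, of which Gm5648 took 44.0% and Gm15953 took 8.73%. Those pseudogenes had 13 to 85 and 3 to 22 counts in the libraries, at most 0.436% and 0.26% of the counts of Uhrf1 in the same library. How reads with several positions were treated is not given in the sources used here, so the Uhrf1 level may be understated by an amount that is not known.

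The partners of maintenance, 10 genes of which 9 were tested, had 3 lower and 1 higher at 24 h, 4 lower and none higher at 48 h against 0 h, and 4 lower and 1 higher from 24 h to 48 h. The shares called were 44.4%, 44.4% and 55.6%, beside 25.5%, 31.6% and 21.3% of all genes. Median log2 fold changes of the 9 genes were -0.19, -0.26 and -0.22, beside 0.01, 0.02 and -0.00453 for all genes tested. Pclaf, the PCNA-associated factor whose ubiquitinated form draws Dnmt1 to replicating DNA, had 83.7 CPM at 0 h, 47.7 after 24 h and 33.9 after 48 h (log2 fold change -1.30 at 48 h against 0 h, adjusted p = 0.000617, edgeR with Benjamini-Hochberg). Zfp57, a zinc finger protein that guards methylation at imprinted regions, fell from 27.0 to 14.6 and stood at 11.7 CPM at 48 h. Cdca7, a partner of the remodeller Hells, and Pcna, the sliding clamp of replication, were lower at 48 h than at 0 h by 0.56 and 0.46 on the log2 scale. Lig1, the ligase that joins Okazaki fragments and is methylated to bind Uhrf1, rose at 24 h (378 to 540 CPM) and was lower again at 48 h (401 CPM). Uhrf2, the paralog of Uhrf1, had 111 CPM at 0 h, 77.0 after 24 h and 92.4 after 48 h, a fall by 0.52 and then a rise of 0.27 on the log2 scale (adjusted p = 0.00964 and 0.013, edgeR with Benjamini-Hochberg). Hells, Usp7 and Trim28 did not pass the test in any comparison, and Dppa3, which can displace Uhrf1 from chromatin, stayed below the filter.

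Because Uhrf1 is known as a gene of proliferating cells, it was set beside genes of the cell cycle. Of 25 S phase genes none was higher and 4, 8 and 7 were lower at 24 h against 0 h, 48 h against 0 h and 48 h against 24 h, with median log2 fold changes of -0.02, -0.09 and -0.12. The counts were sensitive to single libraries: at 24 h they were 2 without the second 24 h library and 7 without 0 h replicate 3, at 48 h against 0 h they fell to 4 or 5 without the second 0 h library or any 48 h library, and at 48 h against 24 h to between 2 and 4 without any 24 h library or the first 48 h library. With all 9 libraries in 1 fit, 1 was lower at 48 h against 24 h. The summed level of the list was 5027 to 5942 CPM at 0 h, 5026 to 5169 after 24 h and 4354 to 4735 after 48 h. The named S phase genes that fell at both times against 0 h were E2f1, which encodes a transcription factor of S phase entry, the cyclin gene Ccne1, Rrm2 of ribonucleotide reductase and Prim1 of DNA primase. Uhrf1 was at 57.6% of its 0 h mean at 24 h and at 43.6% at 48 h, next to 59.9% and 44.2% for E2f1, 68.9% and 48.1% for Ccne1, and 55.8% and 48.4% for Rrm2. Mcm7, a subunit of the replicative helicase, was at 91.5% and 76.9%. The S phase genes named here were picked for the smallest adjusted p among those called, so they do not stand for the list. Log2 fold changes in the whole list ran from -0.84 to 0.35 at 24 h and from -1.17 to 0.60 at 48 h against 0 h. Of 14 G2/M genes, Cdk1 was lower at 24 h and at 48 h against 0 h, Ccnb1 was higher at 48 h against 0 h, and Ccnb1, Kif11, Plk1 and Cdc20 were higher at 48 h than at 24 h. In the same order of comparisons, 7.14%, 14.3% and 28.6% of the G2/M list were called, beside the same shares of all genes, 25.5%, 31.6% and 21.3%. The part of the cell cycle in the fall of Uhrf1 was not tested.

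**Figure D2:**
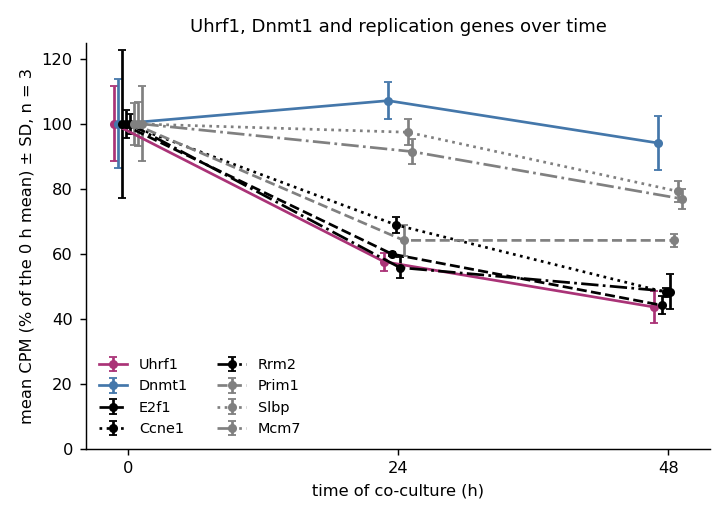
Mean level of Uhrf1, Dnmt1 and 6 S phase genes as a percentage of each gene's own 0 h mean (vertical axis, from 0) against hours of co-culture, with SD over 3 libraries as bars and points set slightly apart for sight. The S phase genes are those with the smallest adjusted p in each comparison, so they do not stand for the list; Uhrf1 runs with E2f1, Ccne1 and Rrm2 to 43.6% at 48 h, and Dnmt1 ends at 94.1%.

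Among the de novo enzymes, Dnmt3b (ENSMUSG00000027478, chr2:153649450-153687730, plus strand) was the most abundant per length at all times and the only one past the test. Its libraries had 134, 136 and 160 CPM at 0 h, 288, 267 and 272 after 24 h, and 182, 191 and 180 after 48 h. All 24 h libraries stood above all others, and the 48 h libraries lay between. Dnmt3b rose 1.92-fold by 24 h (log2 fold change 0.94, SE 0.106, adjusted p = 0.000745 in edgeR with Benjamini-Hochberg) and was 1.49-fold lower at 48 h than at 24 h (-0.58, SE 0.0557, adjusted p = 0.000295, same test). The net difference of 48 h from 0 h was 1.29-fold (0.36, adjusted p = 0.0332 in edgeR with Benjamini-Hochberg), and it is the least firm of the calls: it was lost when the second 0 h library or any of the 48 h libraries was left out (adjusted p = 0.104 to 0.12) and with no expression filter (0.083). Of the 5 markers of differentiating spermatogonia, Kit, Stra8 and Sohlh1 were called higher at 24 h against 0 h, and Kit, Stra8 and Sohlh2 were called lower at 48 h than at 24 h, where Dmrtb1 was called higher. Their part in the Dnmt3b values was not tested.

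Dnmt3a (ENSMUSG00000020661, chr12:3806007-3914443, plus strand) shares with Dnmt3b the task of de novo methylation and is known for most of the methylation set in the male germ line. It had 235, 273 and 292 CPM at 0 h, 242, 208 and 222 after 24 h, and 240, 265 and 229 after 48 h. The groups overlapped, with log2 fold changes of -0.25 at 24 h (unadjusted 95% interval -0.52 to 0.02) and -0.12 at 48 h (-0.38 to 0.14) against 0 h, and 0.13 between them. Dnmt3l (ENSMUSG00000000730, chr10:78041947-78063622, plus strand) had 12 to 44 counts per library, where counting error alone is wide (the lowest count of 12 has an exact Poisson 95% interval of 6.2 to 21). Its means were 1.51, 1.12 and 1.25 CPM, and its log2 fold change at 24 h of -0.43 had an interval of -1.46 to 0.60, so falls and rises of that size are both left within it. Dnmt3l is known as a gene of perinatal prospermatogonia, and an overlap of 67 bases with exons of Aire on the other strand adds to the doubt at this level. Aire had 12, 7 and 1 counts at 0 h, 18, 12 and 12 after 24 h, and 2, 4 and 2 after 48 h. These were 2.27% to 57.1%, 36.4% to 100% and 5.26% to 20.0% of the Dnmt3l counts in the same libraries. The part of shared reads in either count was not tested.

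The make-up of the Dnmt3 family, per kilobase of exon, therefore shifted toward Dnmt3b and partly back. Dnmt3b took 64.4%, 61.4% and 63.2% of the family's counts per kilobase in the 0 h libraries, 79.1%, 80.4% and 79.3% at 24 h, and 70.7%, 69.7% and 71.0% at 48 h. Dnmt3a took a mean of 35.9% ± 1.72, 19.8% ± 0.587 and 28.7% ± 0.994 at these times (SD, n = 3), and Dnmt3l 1.12%, 0.55% and 0.826%. For Dnmt3a and Dnmt3b no library of a group overlapped with another group, at p = 0.1 in each exact permutation test (0.124 after adjustment over the 21), and for Dnmt3l the groups overlapped. With the longest transcript as the length, the shift of Dnmt3b by 24 h was 18.9 percentage points in place of 16.6.

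**Figure D3:**
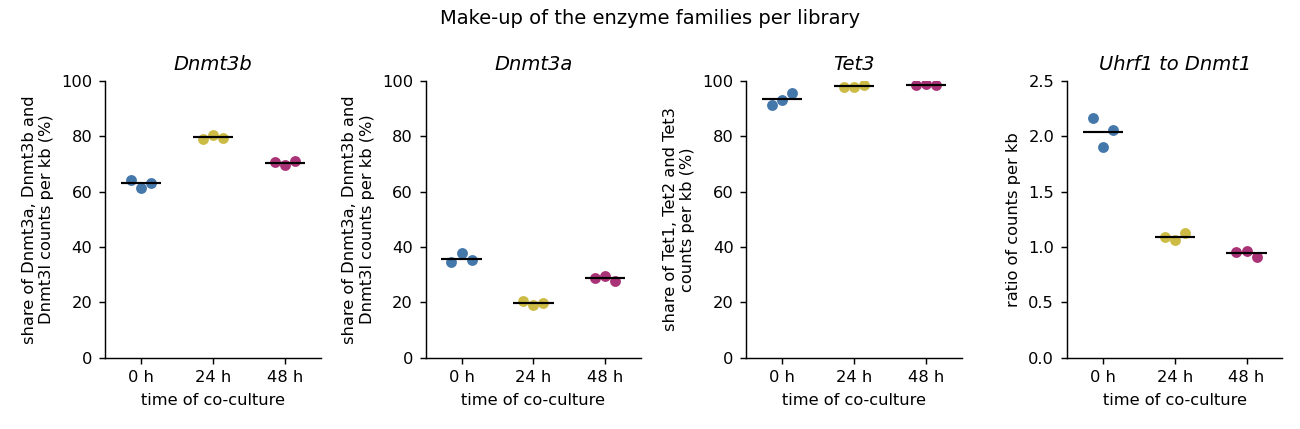
Shares of Dnmt3b and Dnmt3a among the counts per kilobase of Dnmt3a, Dnmt3b and Dnmt3l, share of Tet3 among those of Tet1, Tet2 and Tet3 (percent, axes from 0 to 100), and the ratio of Uhrf1 to Dnmt1 (axis from 0), at 0 h, 24 h and 48 h. Points are the 3 libraries of a group and lines their means; Dnmt3b goes from 63.0% to 79.6% and 70.5%, and the ratio from 2.04 to 0.943.

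Dnmt3c, a duplicate of Dnmt3b found in muroid rodents that methylates young transposons in the fetal male germ line, lies next to Dnmt3b at chr2:153696652-153729907. It had 9, 4 and 10 counts in the 0 h libraries, 29, 37 and 35 after 24 h, and 17, 11 and 23 after 48 h. The 24 h libraries were above all others, with a log2 fold change of 2.03 against 0 h (SE 0.42, adjusted p = 0.0112 in edgeR with Benjamini-Hochberg; 0.0538 without the second 24 h library). Since 51.7% of the Dnmt3c transcript matches Dnmt3b over windows of 75 bases, and its counts were 0.145% to 0.739% of those of Dnmt3b, reads of Dnmt3b placed on Dnmt3c could make up part of its counts. That part was not tested. In turn, 26.7% of the longest Dnmt3b transcript matched Dnmt3c, so the Dnmt3b level and its family share may be understated by an amount that is not known.

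Around the de novo enzymes, a list of 10 partners and related enzymes, Dnmt3c included, had 3 higher and 1 lower at 24 h, 2 higher and 2 lower at 48 h against 0 h, and 1 of each from 24 h to 48 h. The shares called were 40.0%, 40.0% and 20.0%, beside 25.5%, 31.6% and 21.3% of all genes. Ehmt2, a writer of H3K9me2 that also recruits methyltransferases, had 380 CPM at 0 h, 956 after 24 h and 1083 after 48 h. Kdm1a, an H3K4 demethylase that clears the mark shunned by the Dnmt3 enzymes, rose by 0.41 on the log2 scale at 24 h, while its homolog Kdm1b, known for imprint setting in oocytes, fell by 0.74 at 48 h against 0 h. Spocd1, which links piRNA to de novo methylation of transposons in fetal male germ cells, went from 20.0 to 9.15 and 11.7 CPM (log2 fold change -1.12 at 24 h, adjusted p = 0.00555, edgeR with Benjamini-Hochberg). Nsd1, Nsd2 and Setd2, writers of the H3K36 methylation read by Dnmt3a and Dnmt3b, were not called in any comparison, and neither were Morc1 and Trdmt1, the tRNA methyltransferase once named Dnmt2 (12.3, 9.57 and 10.3 CPM).

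Tet3 (ENSMUSG00000034832, chr6:83362373-83459084, minus strand), known for oxidising the paternal genome in the zygote, had the largest change of the 8 genes at both times against 0 h. It had 68.4, 80.1 and 64.3 CPM in the 0 h libraries, 255, 230 and 192 after 24 h, and 327, 353 and 283 after 48 h. Each library was above every library of the earlier times. Tet3 rose 3.18-fold by 24 h (log2 fold change 1.67, SE 0.147, adjusted p = 0.000254 in edgeR with Benjamini-Hochberg), and was 4.54-fold higher at 48 h than at 0 h (2.18, SE 0.136, adjusted p = 4.58e-05, same test). From 24 h to 48 h it rose a further 1.43-fold (adjusted p = 0.0097, edgeR with Benjamini-Hochberg). These calls held in all 8 other settings and in each fit with a library left out. The stromal and myoid marker levels given above rose over the same times, and their part in the Tet3 values was not tested.

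Tet1 (ENSMUSG00000047146, chr10:62804570-62908996, minus strand), a dioxygenase of pluripotent and primordial germ cells, was near the limit of detection. It had 64, 66 and 34 counts at 0 h, 39, 28 and 24 after 24 h, and 28, 41 and 23 after 48 h. The groups overlapped through 0 h replicate 3. The log2 fold change was -0.94 at 24 h (SE 0.381) and -1.01 at 48 h (SE 0.372) against 0 h, which did not pass the test (adjusted p = 0.116 and 0.0783, edgeR with Benjamini-Hochberg). Without that library both were called lower, at -1.20 (adjusted p = 0.0191) and -1.26 (0.0139), and so they were with GC and length offsets in the fit (0.0283 and 0.00825). The value at 48 h was also called with all 9 libraries in 1 fit (adjusted p = 0.0451).

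Replicate 3 of 0 h was the highest of its group for Dnmt1, Uhrf1, Dnmt3a, Dnmt3b and Dnmt3l in CPM, and the lowest for Tet1, Tet2 and Tet3. Of the longest transcripts, those of Tet1 and Tet2 have the lowest GC content of the 8 (43.7% and 45.4%), and the others have 51.9% to 54.0%. The part of GC content in the spread at 0 h was not tested.

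Tet2 (ENSMUSG00000040943, chr3:133463679-133545139, minus strand), known as a tumour suppressor in blood cells, had 37, 49 and 22 counts at 0 h, 60, 67 and 38 after 24 h, and 69, 49 and 60 after 48 h. The groups overlapped, and its log2 fold changes of 0.54 (unadjusted 95% interval -0.37 to 1.45) and 0.59 (-0.27 to 1.44) against 0 h were not called. Among the Tet genes, Tet3 took 91.3%, 93.1% and 95.6% of the counts per kilobase in the 0 h libraries, 98.0%, 97.8% and 98.4% at 24 h, and 98.5%, 98.9% and 98.5% at 48 h. The share of Tet1 was 4.17% ± 1.46, 0.715% ± 0.0867 and 0.482% ± 0.0582 (SD, n = 3). For Tet1 and Tet3 the groups did not overlap, at the smallest p of 0.1 in the exact permutation test and 0.124 after adjustment. Nearly all Tet RNA was thus Tet3 at each time.

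**Figure D4:**
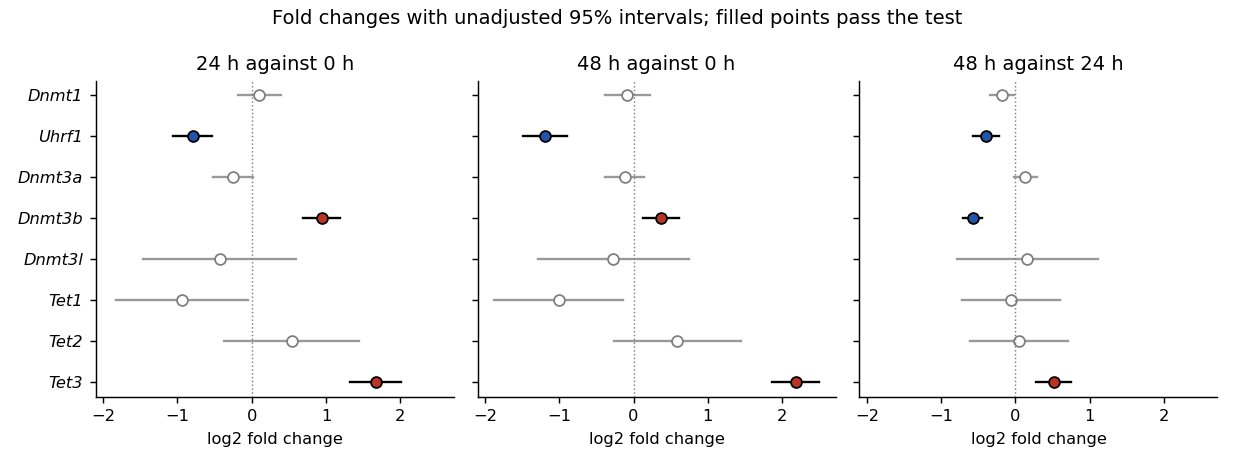
Log2 fold change (horizontal axis) of the 8 genes in the 3 comparisons, with lines for unadjusted 95% intervals from the edgeR fits. Red points were called higher and blue points lower, and open points were not called; Uhrf1, Dnmt3b and Tet3 are filled in each panel, and the intervals of Dnmt3l, Tet1 and Tet2 are the widest.

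Of 8 genes that act with the Tet enzymes or supply their cofactor 2-oxoglutarate, 2 were higher and 2 lower at both times against 0 h, and 2 were lower at 48 h than at 24 h. The shares called were 50.0%, 50.0% and 25.0%, beside 25.5%, 31.6% and 21.3% of all genes. Gadd45b, an adaptor of stress response and DNA demethylation, had 7.20 CPM at 0 h, 29.7 after 24 h and 21.3 after 48 h (log2 fold change 2.04 at 24 h, adjusted p = 0.000187, edgeR with Benjamini-Hochberg), and its relative Gadd45g rose by 1.11 on the log2 scale. Idh1, which makes 2-oxoglutarate in the cytosol, fell from 95.6 to 50.6 CPM and stood at 50.2 at 48 h. Cxxc5, a CpG-binding relative of the Tet CXXC domain, fell by 0.53 on the log2 scale at 24 h. Ogt, the O-GlcNAc transferase that binds Tet proteins, had 119, 110 and 122 CPM and was not called.

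The base excision repair list, which completes removal of oxidised cytosine, had 1 higher and 2 lower of 12 at 24 h, 1 and 3 at 48 h against 0 h, and 3 lower from 24 h to 48 h. The shares called, 25.0%, 33.3% and 25.0%, were near the 25.5%, 31.6% and 21.3% of all genes. Tdg, the glycosylase that cuts out 5-formylcytosine and 5-carboxylcytosine, had 47.6 ± 0.605 CPM at 0 h, 48.7 ± 4.91 after 24 h and 47.4 ± 4.44 after 48 h (SD, n = 3) and was not called, with unadjusted 95% intervals of -0.24 to 0.31 and -0.26 to 0.26 on the log2 scale against 0 h. Neil3, a glycosylase of dividing cells, fell from 17.9 to 9.05 and stood at 5.64 CPM at 48 h, and Ung, the uracil glycosylase, fell by 0.64 on the log2 scale at 48 h against 0 h. Parp1, which senses strand breaks, was lower and Lig3 higher at both times against 0 h.

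Among the 10 readers of methylated DNA, 1 was called higher in each comparison and 3 were called lower, all 3 of them from 24 h to 48 h. The shares called were 10.0% at both times against 0 h and 40.0% at 48 h against 24 h. Of all genes, 25.5%, 31.6% and 21.3% were called at 24 h against 0 h, 48 h against 0 h and 48 h against 24 h. Mbd3, a subunit of the NuRD complex that has lost affinity for methylated CpG in mammals, had 62.8 CPM at 0 h, 130 after 24 h and 94.9 after 48 h and was called higher at 24 h (log2 fold change 1.05, adjusted p = 0.00808, edgeR with Benjamini-Hochberg). From 24 h to 48 h, Zbtb38 was higher, and Mbd3 and Mbd2 were lower by 0.44 and 0.24 on the log2 scale. In the supply of methyl groups, 2 genes were higher and 4 lower of 11 tested at both times against 0 h, a share of 54.5% at each time. Mthfd1, of the folate cycle, fell from 146 to 69.1 CPM at 24 h (log2 fold change -1.07, adjusted p = 0.000409, edgeR with Benjamini-Hochberg), and Shmt2, the mitochondrial serine hydroxymethyltransferase, and Mtr, methionine synthase, fell at each step. Mat2b, the regulatory subunit of methionine adenosyltransferase, rose by 0.67 on the log2 scale at 48 h against 0 h.

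Over the 6 lists of partners, 10 of 60 genes tested were higher and 12 lower at 24 h, 8 and 15 at 48 h against 0 h, and 3 and 15 from 24 h to 48 h, with medians of 0.05, -0.03 and -0.04 on the log2 scale. These are shares of 36.7%, 38.3% and 30.0% called, beside the background of all genes given above. With all 9 libraries in 1 fit, edgeR called 0 of the 60 at 48 h against 24 h (16 had an unadjusted p under 0.05, and DESeq2 called 17 in the comparison of 6 libraries). Single libraries moved these counts by over 1.5 times: 12 or 13 in all at 24 h without the second 0 h library or any 24 h library, 15 at 48 h against 0 h without the first or the second 48 h library, and 11, 11 and 7 at 48 h against 24 h without 24 h replicate 1, 24 h replicate 3 or 48 h replicate 1. Dppa3, Mat1a and Bhmt did not pass the filter.

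**Figure D5:**
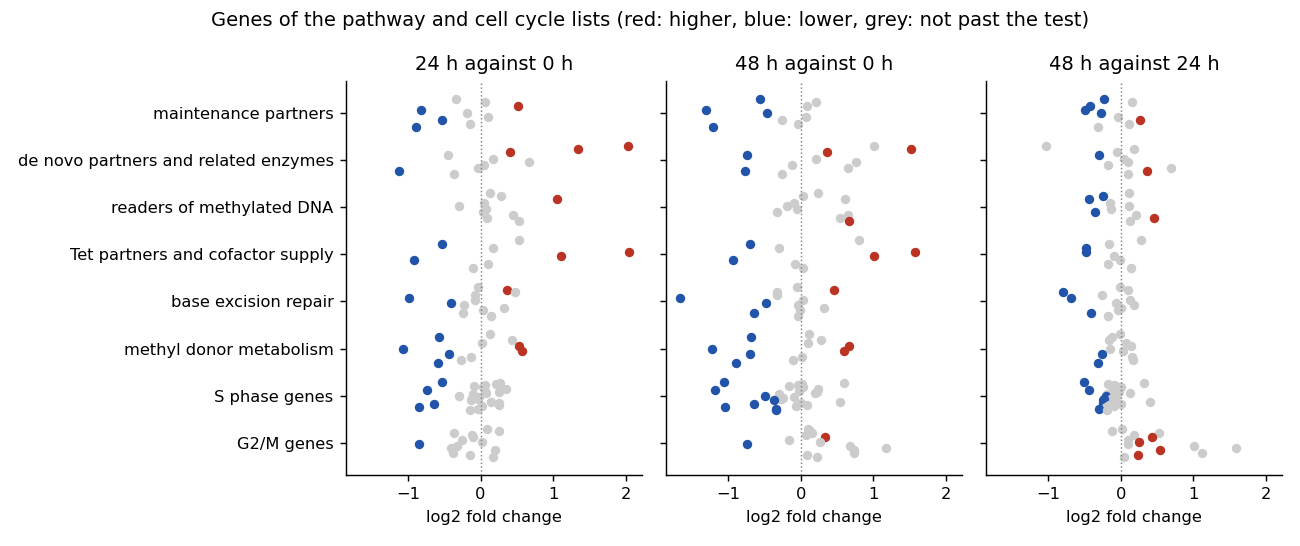
Log2 fold change (horizontal axis) of each tested gene of 6 lists of pathway partners and 2 lists of cell cycle genes in the 3 comparisons, spread vertically within a list for sight. Red points were called higher, blue points lower and grey points were not called; in the S phase list no point is red, and in the comparison of 48 h with 24 h blue points outnumber red ones among the partners by 15 to 3, calls that go to 0 with all 9 libraries in 1 fit.

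The genes most like each member over the 9 libraries were named by Pearson's r of log2 CPM among 10184 protein-coding genes that reached a mean of 10 CPM in a group. The 9 points fall into 3 times, and the highest of so many values is given as a description only. For Uhrf1 these were Tfeb (r = 0.999), Kif19a (0.997) and Sh3glb2 (0.996), and Tfeb had 81.9, 22.4 and 12.8 CPM at the 3 times. For Dnmt3b they were Npr1 (0.995), Slc8b1 (0.994) and B3gnt7 (0.993), which were likewise highest at 24 h. For Tet3 they were Pcnt, Ptpn21 and Vcl, each with r = 0.992. For Dnmt1 they were Fgfrl1 (0.989), Zfp598 (0.982) and Tcf3 (0.978), and for Dnmt3a Med18 (0.974), Asphd2 (0.963) and Eif4g1 (0.959). For the low genes Dnmt3l, Tet1 and Tet2 the best values were 0.91, 0.963 and 0.92.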

How the data were processed

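RNA-seq was measured in 9 samples, which the labels place in groups of 3 replicates (0 h, 24 h, 48 h). The authors deposited raw counts of reads per Ensembl gene, and the submitters' processing notes name fastp, HISAT2, featureCounts and GRCm38; tool settings are not given in the sources used here. Symbols, exons and lengths came from GENCODE release M21, which held 45229 of 46078 identifiers.

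The 8 members and all gene lists were chosen with earlier results of these data known. Each comparison used the 6 libraries of its groups, with filterByExpr, TMM and two-sided quasi-likelihood tests in edgeR 4.0.16 (R 4.3.3) and Benjamini-Hochberg adjustment at 0.05. Replicates of a group differed by more than sampling noise, and p-values measure only the spread between these samples. CPM are TMM-normalized, and FPKM were computed from them with the union of exons. Shares within families were compared by exact permutation tests (SciPy 1.17.1). Genes named from lists are up to 4 per list and comparison with the smallest adjusted p and a mean of at least 10 CPM in a group, with Uhrf2, Dnmt3c, Trdmt1, Tdg and Ogt always, and other list genes are named only as not called, as holding promoter letters or as markers. Shared sequence was measured with BLAST 2.17.0. Alternatives were DESeq2 1.42.0, its size factors, library size alone, a fit without the expression filter, a minimum of 10 counts per library, a joint fit of the 9 libraries, a replicate block, offsets for GC content and length, the longest transcript as length, and leaving out each library. The edgeR procedure was tested on simulated data. Library totals of 16825251 to 22201892 counts set the precision of low genes, and Poisson intervals cover counting error only. Some genes that the naming rule selects are not reported here.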

Additional observations from a re-analysis of the deposited data

How the results depend on the processing

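Of the 9 calls of Uhrf1, Dnmt3b and Tet3, 7 kept their direction and passed the threshold in all 8 other settings and in every fit with a library left out. The exceptions were Dnmt3b at 48 h against 0 h, and Uhrf1 at 48 h against 24 h. The replicate numbers do not pair the samples: deviations of same-numbered libraries from their group means correlated between -0.281 and 0.194. With the number as a block, Dnmt3b at 48 h against 0 h lost its call (adjusted p = 0.106 in edgeR, Benjamini-Hochberg), partner genes called at 48 h against 24 h went from 18 to 11, and S phase genes called went from 8 to 5 at 48 h against 0 h and from 7 to 3 at 48 h against 24 h. The spread at 0 h was the larger (common biological coefficient of variation 0.22 and 0.228 in the comparisons with 0 h, 0.115 without it), and with all 9 libraries in 1 fit the counts for 48 h against 24 h went to 1043 of all genes (3732 before), 1 S phase gene and 0 partner genes by edgeR, of which 16 had an unadjusted p under 0.05 and for which DESeq2 on 6 libraries called 17. S phase genes called at 48 h against 0 h were 5 with library size alone and 5 with no expression filter, and at 24 h against 0 h 7 with offsets for GC content and length. Library size alone, in place of TMM, moved the median of all genes by 0.113 and 0.11 on the log2 scale at 24 h and 48 h against 0 h, and the part of called genes that were higher from 44.5% to 57.1% and from 41.2% to 52.8%. With the longest transcript as length, the shifts of the Dnmt3a share were -18.3 (24 h against 0 h) and 10.4 percentage points (48 h against 24 h), those of Dnmt3b 18.9 and -10.7, and that of Tet1 -2.62 (48 h against 0 h). The cause was not tested.

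With libraries left out in turn, partner genes called ranged from 12 to 26 at 24 h against 0 h, from 15 to 28 at 48 h against 0 h and from 7 to 19 at 48 h against 24 h, S phase genes from 2 to 7, 4 to 11 and 2 to 9, and all genes from 2607 to 6023, 3471 to 7116 and 1857 to 4356. Directions turned only among values that were not called in any of these settings. For 24 h against 0 h, the log2 fold change ranged over the left-out fits from -0.59 to 0.039 for Trdmt1, from -0.054 to 0.081 for Tdg and from -0.31 to 0.19 for Ogt (0.0056 with library size alone). For 48 h against 0 h, it ranged from -0.18 to 0.021 for Dnmt1 (0.029 with library size alone, 0.066 with GC and length offsets), from -0.70 to 0.13 for Dnmt3l, from -0.48 to 0.14 for Trdmt1, from -0.073 to 0.049 for Tdg (0.00469 with DESeq2, 0.00753 with its size factors, 0.11 with library size alone, 0.016 with at least 10 counts in every library, 0.059 with the offsets) and from -0.16 to 0.33 for Ogt (-0.15 with the offsets). For 48 h against 24 h, it ranged from -0.28 to 0.54 for Dnmt3l, from -0.23 to 0.14 for Tet1, from -0.16 to 0.27 for Tet2 (-0.16 with the offsets), from -0.00755 to 0.22 for Trdmt1 (-0.10 with the offsets) and from -0.094 to 0.059 for Tdg, and was -0.028 for Ogt with the offsets. At 12 to 69 counts per library, depth limits what can be said of Dnmt3l, Tet1 and Tet2. Whether sequencing strand was used in counting is not given in the sources used here, so reads of Dnmt3a, Dnmt3l and Tet2 cannot be told from those of genes on the other strand where exons overlap.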
